A study of Mus musculus with 10 samples.

Results

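The Sox family of transcription factors was examined in the m6A map of mouse hypothalamic neural progenitor cells. m6A, N6-methyladenosine, is a methylated form of adenosine in mRNA, and a peak is an interval in which RNA fragments caught by an m6A antibody (IP) exceeded input RNA. 10 Sox genes were taken, and each received the peaks that overlapped its RefSeq span on GRCm38.p6 by at least 50% of the shorter of peak and span, on the strand with more IP reads. This gave 22 of the 21195 peaks, in 9 of the 10 genes, since no peak overlapped Sox10. The share of overlap was at least 99.1% for each of the 22 peaks, and the only peak that overlapped a listed gene and was left out lay on the opposite strand of Sox8.

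Per the labels, progenitors were taken at E14.5 from the hypothalamus of Mettl14f/f embryos and cultured with FGF2 and EGF (20 ng/ml each) and the supplements N2, Glutamax and 2% B27 (without VA) on Matrigel. Mettl14 belongs to the methyltransferase that places m6A on mRNA. Cells given lenti-EGFP-Cre were the Mettl14 knockout, and cells given lenti-EGFP were the control. Both carried the floxed Mettl14 gene, and both were sorted for EGFP after 72 hours. The labels list 4 IP libraries and 1 input library for the knockout, and as many for the control. The peak table has 1 IP and 1 input column that name neither genotype nor library, so knockout was not compared with control for any Sox gene, no value has a replicate spread, and it is unknown which genotype's reads a count holds. Nor can transcript abundance be separated from the number of cells that express a gene.

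Sox proteins share the HMG box, a domain that binds and bends DNA, and are sorted into subgroups by sequence. SoxB1 factors (Sox1, Sox2, Sox3) keep neural cells in the progenitor state, and SoxC factors (Sox4, Sox11, Sox12) act later, as neurons differentiate. Sox6 is a SoxD factor, which carries a coiled coil for dimer formation and no transactivation domain of its own. SoxE factors (Sox8, Sox9, Sox10) act in glial and neural crest lineages, with Sox9 needed for the onset of gliogenesis and Sox10 for oligodendrocyte differentiation. The SoxB1 and SoxC genes have no introns, so for them distance along the gene is distance along the transcript.

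Over all peaks the files held 72308582 IP and 26633390 input reads, a ratio of 2.71. Medians per peak were 864 IP reads, 466 input reads and a log2 fold change of IP over input of 3.06 per the authors' deposited table. Fold changes are quoted from that table, while read ratios were computed here and carry no correction for depth, which means that values under 1 are not depletion. Intervals beside ratios are exact Clopper-Pearson 95% intervals, which take the deposited numbers as counts of independent reads and cover counting error only. Of the fixed markers, a peak was found in 6 of 10 neural progenitor genes (94273 IP and 22692 input reads in all, with none in Vim, Hes5, Fabp7 and Msi1) and in 3 of 6 hypothalamic genes (170036 IP and 29160 input reads, none in Rax, Six6 and Otp). The progenitor markers include Sox1 and Sox2, and without them 4 of 8 had a peak, with 8226 IP and 3787 input reads. Peaks were also found in 3 of 6 neuronal, 2 of 4 astrocyte, 5 of 7 oligodendrocyte lineage, 1 of 5 microglial and 1 of 4 endothelial markers, against 44.2% of all protein-coding genes. Their input reads came to 35534, 31652, 158602, 1420 and 1751, and Dcx, Syt1, Snap25, Gfap, Aldh1l1, Mbp, Mog, Cx3cr1, Aif1, Csf1r, Tmem119, Pecam1, Cldn5 and Cdh5 had no peak. What part such cells have in the Sox reads was not tested.

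Of the listed subgroups SoxB1 had the most reads, in Sox1 and Sox3, and Sox1 had the highest IP to input ratio once the reads of each gene were summed. Sox1 (chromosome 8, 12395519 to 12399555, plus strand) had a peak of 2200 bases at 12396045 to 12398244 with 77128 IP and 16998 input reads. Its ratio was 4.54 (95% interval 4.46 to 4.61), and the log2 fold change was 2.92 per the authors' deposited table. This input count was above that of 99.4% of all peaks. A second row assigned to Sox1 was a block of 39125 bases, 12385896 to 12425020, that contains the whole gene and lies within the span of the long noncoding RNA Sox1ot on the same strand. The block held 8886 IP and 1897 input reads, a ratio of 4.68 (95% interval 4.46 to 4.92), with a log2 fold change of 3.95 per the authors' deposited table. It encloses the narrower peak and yet has fewer reads than it, so its reads are not those of the Sox1 peak. Without the block the strongest Sox1 value is 2.92 per the authors' deposited table. The narrower peak also lies within the Sox1ot span on the same strand, and it carries 2 gene identifiers. How reads that fit both Sox1 and Sox1ot were counted was not given in the sources used here.

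Sox3 (chromosome X, 60891366 to 60893430), whose product is also a SoxB1 factor, had a single peak that began and ended with the RefSeq span of 2065 bases. It held 33448 IP and 11138 input reads, a ratio of 3.0 (95% interval 2.94 to 3.07). The log2 fold change of this peak, 2.13 per the authors' deposited table, was the lowest value reached by the strongest peak of any of the 9 genes.

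Sox2, a marker of neural stem cells, had few reads. Its only peak, on chromosome 3 at 34650405 to 34652054 on the plus strand, held 33 IP and 10 input reads, a ratio of 3.30 (95% interval 1.59 to 7.51), with a log2 fold change of 2.81 per the authors' deposited table. Only 1.65% of all peaks had fewer input reads. Per kilobase of peak Sox2 had 6.06 input reads, against 5394 for Sox3 and 7726 for the narrower Sox1 peak, which lies within the Sox1ot span. The Sox2 gene lies inside the span of the long noncoding RNA Sox2ot, and other peaks of that span on the same strand carried more reads. The nearest downstream, at 34653189 to 34656163, had 1036 IP and 173 input reads. A pair upstream, at 34573844 to 34611835 and 34611886 to 34630206, had 172759 and 172727 IP reads beside 31798 and 31737 input reads, nearly equal counts in intervals that do not overlap. How reads that fit both Sox2 and Sox2ot were counted was not given in the sources used here, so the Sox2 count is not taken as the level of its mRNA.

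**Figure D1:**
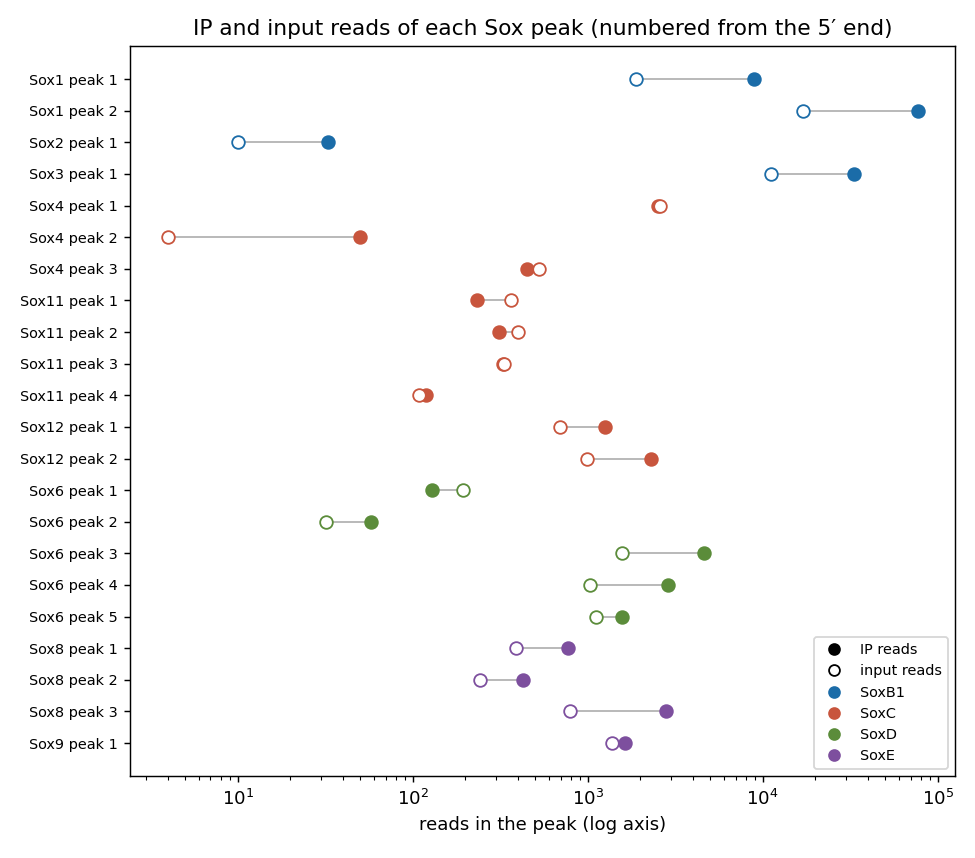
Reads in each of the 22 peaks of the listed Sox genes, IP filled and input open, on a log axis; peaks of a gene are numbered from its 5′ end and coloured by subgroup. The narrower Sox1 peak and the Sox3 peak lie furthest right, the Sox2 peak and the middle Sox4 peak have 10 and 4 input reads, and 6 peaks have fewer IP than input reads.

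SoxC genes held 9 of the 22 peaks, and 2 of them, Sox4 and Sox11, had the lowest summed read ratios of the listed genes. Sox4 (chromosome 13, 28948919 to 28953699, minus strand), which acts in differentiating neurons, had 3 peaks. The 5′ one, at 28952619 to 28953643, held 2512 IP and 2579 input reads, a ratio of 0.974 (95% interval 0.922 to 1.03), with a log2 fold change of 0.57 per the authors' deposited table. The one at the 3′ end, 28948919 to 28949168, held 453 IP and 527 input reads, a ratio of 0.860 (95% interval 0.756 to 0.976), and had 2.70 per the authors' deposited table. Between them lay a peak of 2075 bases, 28950044 to 28952118, with only 50 IP and 4 input reads. Its ratio of 12.5 has a 95% interval of 4.59 to 47.7, and its log2 fold change of 5.04 per the authors' deposited table is the highest of the family and rests on those 4 reads. Input came to 1.93 reads per kilobase in it, between flanking peaks of 2516 and 2108. With peaks of 20 or more input reads alone, the strongest Sox4 value is 2.70 per the authors' deposited table. The long noncoding RNA Gm46405 overlaps the whole Sox4 span.

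Sox11 (chromosome 12, 27334268 to 27342718, minus strand), another factor of neuronal differentiation, had 4 peaks spread over its transcript. From 5′ to 3′ they held 234, 311, 330 and 120 IP reads, beside 363, 400, 333 and 109 input reads. The ratios were 0.645 (95% interval 0.545 to 0.762), 0.778 (0.668 to 0.904), 0.991 (0.848 to 1.16) and 1.10 (0.842 to 1.44). Intervals of the last 3 overlap from each to the next, and that of the 5′ peak overlaps only its neighbour's. Log2 fold changes in the same order were 0.51, 2.34, 2.34 and 2.64 per the authors' deposited table. Sox11 thus had no peak above the 3.06 of the median peak in that table.

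Sox12 (chromosome 2, 152393611 to 152398046, minus strand), the third SoxC gene, had a higher summed read ratio than Sox4 and Sox11. Both its peaks were still below the ratio of 2.71 over all reads in peaks. The 5′ peak, 152396511 to 152398060, ran 14 bases past the annotated start and held 1263 IP and 693 input reads, a ratio of 1.82 (95% interval 1.66 to 2.00). The other, 152394761 to 152395210, held 2292 IP and 991 input reads, a ratio of 2.31 (95% interval 2.15 to 2.49). Log2 fold changes were 1.38 for the 5′ peak and 2.80 for the other per the authors' deposited table.

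Sox6, the listed SoxD gene, had 5 peaks, more than any other member, over a span of 569905 bases (chromosome 7, 115470872 to 116040776, minus strand). The strongest was a peak of 100 bases at 115846010 to 115846109 with 4632 IP and 1567 input reads, at a ratio of 2.96 (95% interval 2.79 to 3.13). Its log2 fold change was 4.02 per the authors' deposited table. Near the 3′ end a peak of 10401 bases, 115476222 to 115486622, held 2869 IP and 1031 input reads and had 3.57 per the authors' deposited table. The peak that ends with the gene, 115470872 to 115471871, held 1575 IP and 1109 input reads and had 2.81 in that table. A peak of 125 bases at 116030910 to 116031034 had 58 IP and 32 input reads, with 3.24 per the authors' deposited table. The 5′-most peak, 116034377 to 116038789, had 129 IP and 195 input reads, a ratio of 0.662 (95% interval 0.525 to 0.831), and 1.0 per the authors' deposited table. The long noncoding RNAs Gm51455 and Sox6os lie within the Sox6 span.

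SoxE genes were unlike each other. Sox8 (chromosome 17, 25565893 to 25570686, minus strand), a glial and neural crest factor, had 3 peaks. From 5′ to 3′ they held 777, 429 and 2802 IP reads, beside 389, 244 and 792 input reads. The ratios were 2.00 (95% interval 1.77 to 2.26), 1.76 (1.5 to 2.07) and 3.54 (3.27 to 3.83), so the 3′ peak exceeded both others beyond counting error. Log2 fold changes in the same order were 1.5, 2.01 and 3.44 per the authors' deposited table. Sox9 (chromosome 11, 112782210 to 112787757, plus strand) had 1 peak, 112785276 to 112786500, with 1634 IP and 1370 input reads. Its ratio was 1.19 (95% interval 1.11 to 1.28) and its log2 fold change 2.29 per the authors' deposited table. Sox10 (chromosome 15, 79154913 to 79164490) had no peak on either strand, under any overlap. Whether these cells express Sox10 cannot be read from a peak list.

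**Figure D2:**
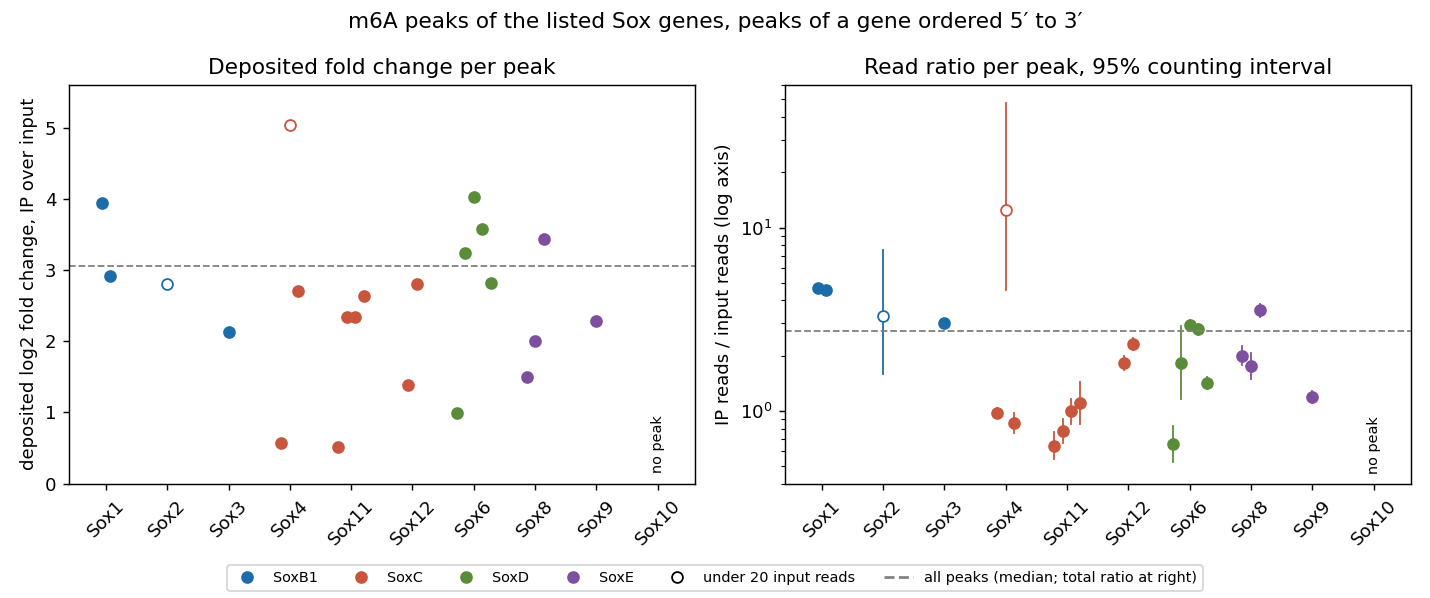
Each point is a peak, with genes ordered by subgroup and peaks of a gene running 5′ to 3′; the left panel gives the log2 fold change taken from the authors' deposited table and the right panel the IP to input read ratio on a log axis with its 95% counting interval. Open points have under 20 input reads, and the dashed lines mark 3.06 (median of all peaks) and 2.71 (all reads in peaks). Only 6 of the 22 points lie above the left line, and the Sox4 and Sox11 ratios lie near or below 1 apart from the open Sox4 point.

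Set side by side, SoxB1, SoxC and SoxE had close medians of the strongest peak, although genes within each differed widely. Read ratios were spread more widely than these medians. The median of the strongest log2 fold change per gene was 2.81 over the 3 SoxB1 genes per the authors' deposited table. It was 2.80 over the 3 SoxC genes and 2.86 over Sox8 and Sox9, and Sox6 had 4.02 in that table. Genes ran from 2.13 to 3.95 in SoxB1, 2.64 to 5.04 in SoxC and 2.29 to 3.44 in SoxE in that table. The SoxB1 median is the Sox2 value, which comes from a peak of 10 input reads. Over all 9674 protein-coding genes with a peak the median was 3.51, and 6 of the 9 Sox genes lay below it. A strongest value of 3 or more was found in 4 of the 9 genes (Sox1, Sox4, Sox6 and Sox8), against 67.8% of all genes with a peak. Sox1 reached it only through the wide block and Sox4 only through its peak of 4 input reads. With peaks of 20 or more input reads, it was found in 3 of 8 genes (Sox1, Sox6 and Sox8), against 66.3% of all genes with such a peak. Without the block as well, it was found in 2 of 8, Sox6 and Sox8. No like block was left out of the other genes, so the 66.3% is not a match for that count. Peaks of 3 or more numbered 6 of 22 (27.3%), the block and the Sox4 peak of 4 input reads included, against 52.1% of all peaks. Fewer IP than input reads were found in 6 of 22 Sox peaks (27.3%), 5 of them in Sox4 and Sox11 and the other in Sox6, against 11.3% of all peaks. An adjusted p under 1e-10 per the authors' deposited table was found for 15 of 22, against 86.4% of all peaks, and 2 of 22, in Sox2 and Sox4, had fewer than 20 input reads, against 4.81%. Sox4, Sox11, Sox6 and Sox8 had 3 or more peaks, 4 of the 9 genes, against 23.7% of all genes with a peak. No test was made of these differences, because 1 to 3 genes that were picked by name are not replicates.

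With the reads of all its peaks summed, Sox1 had the highest ratio, 4.55 (95% interval 4.48 to 4.62), though both its peaks lie within the Sox1ot span. Sox2 (3.30), Sox3 (3.0) and Sox8 (2.81, 95% interval 2.65 to 2.99) followed, and in this order each interval overlapped the next from Sox1 to Sox8, through the wide interval of Sox2. The Sox1 and Sox3 intervals themselves did not overlap. Sox6 (2.35, 95% interval 2.27 to 2.44), Sox12 (2.11, 1.99 to 2.24), Sox9 (1.19), Sox4 (0.969, 0.922 to 1.02) and Sox11 (0.826, 0.758 to 0.899) came after, each apart from the next beyond counting error. Sox4 thus led by log2 fold change and was next to last by summed reads.

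Along the genes, the 5′-most peak had the lowest fold change in every Sox gene with several peaks whose midpoints lay inside its span, a rule that admits the Sox12 peak that runs past the start. Sox1 is left out, because the midpoint of its wide block lies outside the gene. That block starts further 5′ than the narrower peak and had 3.95 against 2.92 per the authors' deposited table. The comparison was not among the planned results, and no test was made of it. Among listed genes the 5′-most peak was the lowest in Sox4, Sox11, Sox12, Sox6 and Sox8, 5 of 5, with values between 0.51 and 1.5 per the authors' deposited table. The same held for Sox5 and Sox21, although their 5′-most peaks were not near the start, with midpoints at 48.5% and 39.1% of the span. That of Sox5 is an interval of 230134 bases with only 253 IP and 202 input reads. Other genes overlap the Sox5 span, among them Sox5os3 and Sox5os4. Over the family it thus held for 7 of 7 genes, against 44.7% of all 4870 genes with several peaks. That share was lower in genes with more peaks, at 55% for 2 peaks, 39.3% for 3, 31.4% for 4 and 19.9% for 5. By read ratio it held for 3 of the 5 listed genes (Sox11, Sox12 and Sox6) and 4 of the 7, against 39.5% of all such genes. In Sox4, Sox8 and Sox21 the 5′-most peak was not the lowest by reads. Its interval overlapped that of the lowest peak in Sox4 and Sox8, so those orders are within counting error. In Sox11 the interval of the 5′-most peak likewise overlapped its neighbour's. Of the listed genes, only Sox12 and Sox6 had a 5′-most peak that was lowest by reads beyond counting error. In Sox21 the 5′-most peak had a ratio of 1.04 (95% interval 0.977 to 1.10) and the other 0.581 (0.532 to 0.633). The order of peaks thus differed between the measures beyond counting error in Sox21, and no source used here states how the deposited fold change was made.

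The midpoints of 21 peaks lay inside their gene, the exception being the block over Sox1. The 5′ bin, when the span was cut into 5 equal bins, held 6 of them (28.6%), against 14.9% of all peaks inside protein-coding genes. The 3′ bin held 4 (19.0%), in Sox4, Sox11 and Sox6, against 49.7%. Bins were cut along the genomic span, introns included, so shares of genes with and without introns are not like for like. The Sox3 peak covers its whole span, so its midpoint lies in the middle by construction. In the 5′ bin the median log2 fold change was 1.19 for the 6 Sox peaks and 2.85 for 2888 peaks of all genes per the authors' deposited table. In the 3′ bin the medians were 2.76 for 4 Sox peaks and 3.02 for 9596 peaks in that table.

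**Figure D3:**
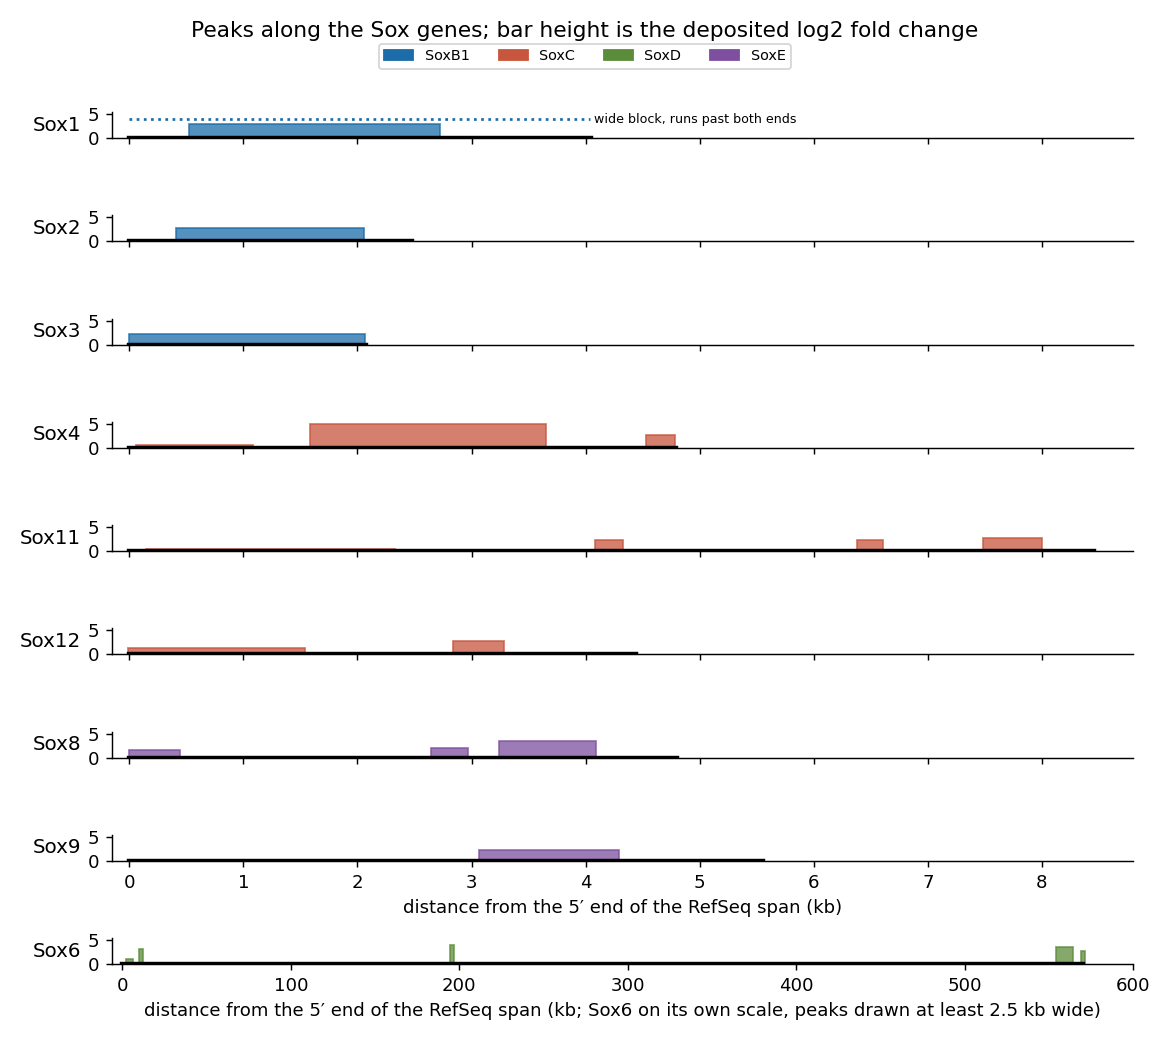
Peaks along the 9 listed genes that have one, in kilobases from the 5′ end of the RefSeq span (black line), with the log2 fold change taken from the authors' deposited table as bar height. Bars are to scale except in Sox6, which has its own axis and its shortest peaks widened to be visible. The wide block over Sox1 is a dotted line at its log2 fold change, cut to the span. The bar nearest the 5′ end is the lowest in Sox4, Sox11, Sox12, Sox8 and Sox6, and the Sox3 bar covers its whole span.

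Deposited fold change and read ratio differed by an amount that varied along the same gene. The log2 fold change taken from the authors' deposited table exceeded the log2 read ratio (pseudocount 0.5) by a median of 1.88 over all peaks. Excesses were small in the 5′ peaks of Sox8 (0.50), Sox12 (0.52) and Sox4 (0.60) and in the narrower Sox1 peak (0.73) and the Sox3 peak (0.54). They were large in the 3′ peak of Sox4 (2.92), the second Sox11 peak (2.70) and the strongest Sox6 peak (2.46). Sox3 and the strongest Sox6 peak therefore had nearly the same read ratio, 3.0 and 2.96, with log2 fold changes of 2.13 and 4.02 per the authors' deposited table.

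**Figure D4:**
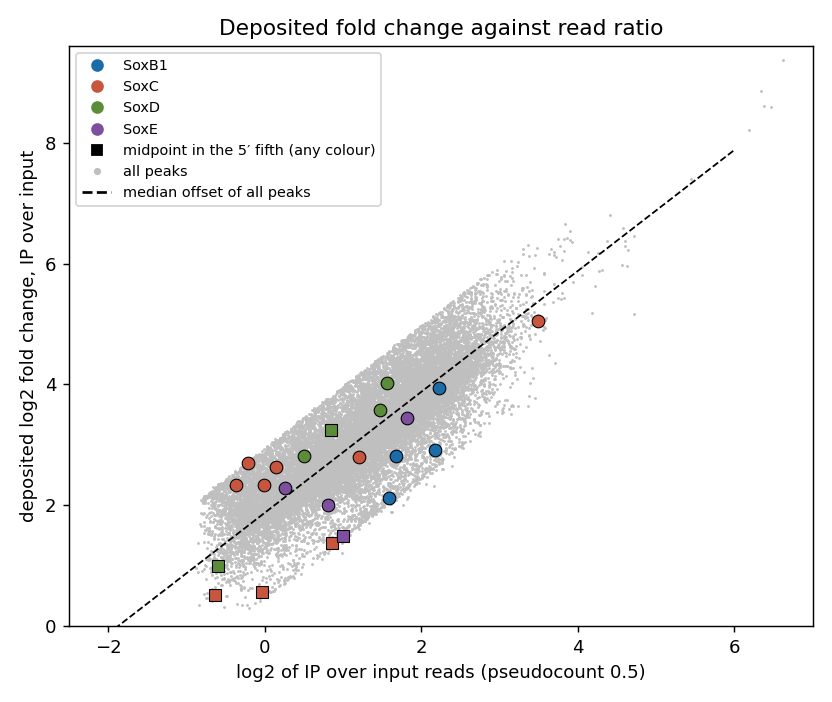
Log2 fold change taken from the authors' deposited table against the log2 ratio of IP to input reads, for all peaks (grey) and the 22 Sox peaks by subgroup; squares have their midpoint in the 5′ bin of 5 along the gene, and the dashed line lies 1.88 above the read ratio. Of the squares, 5 lie below the line and the short Sox6 peak above it.

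Peaks at annotated starts are shown by the windows below, from RefSeq on GRCm38.p6, each with 250 bases before a start and 50 after it. Windows were at hand for 7 of the 10 genes, 12 in all, and Sox3, Sox9 and Sox10 had no entry. Apart from the Sox1 window, which the wide block covers, same-strand peaks reached the transcribed 50 bases of 5 windows, 3 of Sox6 and 1 each of Sox8 and Sox12. Of all 32851 windows of the table, 5.42% were reached. The block over Sox1 included, 6 of the 22 Sox peaks met such transcribed bases, against 7.33% of all peaks. Sequences run 5′ to 3′ on the minus strand, with the bases that a peak covers in capitals.
Sox6 start, chr7:115846091-115846390: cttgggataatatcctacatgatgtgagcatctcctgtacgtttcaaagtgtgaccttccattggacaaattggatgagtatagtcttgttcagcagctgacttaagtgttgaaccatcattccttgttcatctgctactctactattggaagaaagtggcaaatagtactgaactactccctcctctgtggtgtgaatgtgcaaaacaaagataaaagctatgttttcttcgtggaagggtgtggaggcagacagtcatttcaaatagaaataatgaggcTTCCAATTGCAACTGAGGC
Sox6 start, chr7:116030998-116031297: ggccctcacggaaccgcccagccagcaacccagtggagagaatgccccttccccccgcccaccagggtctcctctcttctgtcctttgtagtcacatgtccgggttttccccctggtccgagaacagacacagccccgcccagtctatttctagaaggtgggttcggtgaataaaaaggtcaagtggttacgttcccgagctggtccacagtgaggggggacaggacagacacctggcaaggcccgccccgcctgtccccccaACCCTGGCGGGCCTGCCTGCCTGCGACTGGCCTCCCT
Sox6 start, chr7:116038695-116038994: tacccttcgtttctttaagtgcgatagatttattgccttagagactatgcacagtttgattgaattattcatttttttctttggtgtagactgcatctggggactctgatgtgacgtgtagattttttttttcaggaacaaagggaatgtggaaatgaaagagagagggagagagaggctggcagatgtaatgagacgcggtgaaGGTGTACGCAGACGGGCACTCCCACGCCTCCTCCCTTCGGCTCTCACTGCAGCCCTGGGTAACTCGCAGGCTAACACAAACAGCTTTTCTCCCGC
Sox8 start, chr17:25570637-25570936: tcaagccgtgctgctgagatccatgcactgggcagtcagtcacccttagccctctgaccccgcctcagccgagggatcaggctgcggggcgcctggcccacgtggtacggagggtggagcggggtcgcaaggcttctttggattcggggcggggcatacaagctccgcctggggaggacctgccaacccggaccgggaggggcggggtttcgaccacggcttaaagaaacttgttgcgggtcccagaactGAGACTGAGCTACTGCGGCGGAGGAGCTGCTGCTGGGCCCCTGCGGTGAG
Sox12 start, chr2:152397997-152398296: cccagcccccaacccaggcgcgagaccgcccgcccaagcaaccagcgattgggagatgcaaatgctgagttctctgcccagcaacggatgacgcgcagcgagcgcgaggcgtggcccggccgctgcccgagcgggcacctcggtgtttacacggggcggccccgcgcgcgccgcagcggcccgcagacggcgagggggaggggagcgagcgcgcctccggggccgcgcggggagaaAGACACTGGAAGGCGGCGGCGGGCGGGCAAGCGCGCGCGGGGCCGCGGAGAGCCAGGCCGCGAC

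The first window shows that the strongest Sox6 peak began within the transcribed 50 bases of an internal start, of which it covered 19. The next peak upstream covered 37 such bases, and the weak 5′-most Sox6 peak covered all 50 bases and 45 before the start. The Sox8 peak began at the start itself and covered the 50 transcribed bases, and the Sox12 peak covered these and 14 before them. The m6A consensus was searched as 18 pentamers, with A, G or T first, then A or G, then AC, and A, C or T last, on both strands and with overlaps counted. On the gene strand the transcribed 50 bases held 1 such pentamer in the first Sox6 window (AGACA), 3 in the third and 1 in Sox8 (AGACT). The second Sox6 window and Sox12 held none there. The AGACA of the first Sox6 window lies outside the peak. Counting only bases that a peak covers, the first and second Sox6 windows held none, the third 3 and Sox8 1. The Sox12 peak covered 1 (AGACA), among the bases before the start. In the transcribed 50 bases, 54.4% of all windows held such a pentamer on the gene strand and 80.4% on either strand. Among the 12 Sox windows the counts for those bases were 6 and 9. The GC content of the windows in the order shown was 41.0%, 63.3%, 47.0%, 66.3% and 76.7%, against a median of 52.7% over all windows.

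The other 10 Sox family genes had a peak in 5 cases, against 44.2% of protein-coding genes and 9 of 10 listed members, which were listed with the peaks known. Sox5, a SoxD gene like Sox6, had 2 peaks, and the one near its 3′ end had 4734 IP and 868 input reads, a ratio of 5.45 (95% interval 5.07 to 5.87), with 4.39 per the authors' deposited table. Sox13, also a SoxD gene, had 43 IP and 9 input reads in its only peak, with 3.16 per the authors' deposited table. All 3 SoxD genes thus had a peak of 3 or more, against 67.8% of all genes with a peak. The Sox13 value rests on 9 input reads, and 3 genes are too few to set apart from that share. Sox21, a SoxB2 factor that opposes SoxB1 activity, had 2 peaks on its strand, with 2298 and 829 IP reads, beside 2217 and 1428 input reads, and at most 1.86 per the authors' deposited table. Sox18 and Sox15 had a single peak each, at 1.90 and 2.41 per the authors' deposited table. The Sox15 peak of 136 bases lies at the 3′ end of that gene and also meets the span of Mpdu1. No peak was assigned to Sox7, Sox14, Sox17, Sox30 or Sry.

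Lists of genes that work with Sox factors or resemble them, chosen with earlier results of these data known, are read beside the 44.2% of all protein-coding genes with a peak. Of 11 DNA-binding partners, 11 had a peak, led by the chromatin remodeller Chd7 at 4.26, Nfib at 3.96 and Pax6 at 3.93 per the authors' deposited table. Pou3f3, a POU factor that pairs with SoxB1 proteins on DNA, had 173317 IP and 27208 input reads, while Pou3f2 had 27 IP and 4 input reads. Of 16 HMG-box relatives, 12 had a peak (75%), led by Tox2 at 4.98, Tox3 at 4.39 and the Wnt effector Tcf7l2 at 4.34 per the authors' deposited table. Lef1, Tcf7, Hbp1 and Tox had none. Of 9 Groucho and CtBP corepressors, 6 had a peak (66.7%), led by Ncor1 at 4.31, Ctbp2 at 4.01 and Tle1 at 3.66 per the authors' deposited table. The median of the strongest value was 2.81 in the 9 listed Sox genes and 3.62, 3.50 and 3.26 in these 3 lists, against 3.51 over all genes with a peak in that table.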

How the data were processed

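Values were read from 1 deposited list of 21195 peaks and a deposited table of the same peaks, and all rows had the same interval, strand and score in both files. Per the file headers, the deposited read counts are given peak by peak as whole numbers, 1 column for IP and 1 for input. Whether they are sums or rounded means across libraries was not given in the sources used here. Per the file headers, the deposited log2 fold change, p-value and adjusted p-value were taken to compare IP with input, and the test was not given in the sources used here. Use of the deposited score was limited to comparing both files. STAR 2.5.2a, Trimmomatic 0.32, bcl2fastq 2.17.1.14 and the builds GRCm38.p6 and GRCh38.p13 are named, without roles, by the submitters' processing notes. Peak coordinates were turned from 0-based to 1-based. RefSeq spans of GRCm38.p6 (21900 protein-coding genes) assigned peaks, with Python 3.11.15, pandas 2.3.3, NumPy 2.4.6, SciPy 1.17.1 and Matplotlib 3.10.9, and the assignment was tested on simulated data. Peak identifiers were not in the gene table, so names come from position. Depth per library is unknown. The planned tests of knockout against control could not be run, because no column belongs to a library. The Sox members, the lists and the markers were chosen with earlier results of these data known. All peaks of the listed Sox genes are named, other Sox genes where they have a peak, and the 3 strongest genes of each list. Pou3f2, Pou3f3 and the list genes without a peak were named after their values were seen. Alternatives changed the overlap, the strand, the input minimum and the summary per gene.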

Additional observations from a re-analysis of the deposited data

Results flagged for a closer look

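An opposite-strand peak lay over the 5′ end of Sox8, outside the peaks used for the gene. It ran from 25570358 to 25570807 on the plus strand of chromosome 17 and held 1342 IP and 553 input reads, a ratio of 2.43 (95% interval 2.20 to 2.68). Its log2 fold change was 1.76 per the authors' deposited table, beside 1.5 for the Sox8 peak on the minus strand at the same place, which held 777 IP and 389 input reads. No control value was at hand.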

How the results depend on the processing

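The count of 22 peaks stayed between 15 (adjusted p under 1e-10) and 23 (both strands). Counting any overlap moved none of the results it was run on. The median strongest log2 fold change of 2.81 became 2.31 with the mean over peaks and 2.75 with 20 or more input reads, which drops Sox2 and the middle Sox4 peak. The median gene ratio, 0.867 times the ratio of all reads, became 1.09 with the peak of most IP reads and 1.0 when scaled by the median peak. SoxB1 (2.81) had 2.86 with all its peaks and 3.04 with 20 or more input reads. The 3.04 is the median over Sox1 (3.95) and Sox3 (2.13) alone, and the Sox1 value comes from the wide block. SoxC (2.80) had 2.34 and 2.70 under the same changes. With all peaks SoxD had 3.24 and SoxE 2.15. Genes with a peak made up 70.0% of the family, and 30.0% with only peaks at or above the median fold change, which leaves fewer peaks by construction. The share of all protein-coding genes under that limit is not given here, so the fall is not read as particular to Sox genes. The share of peaks in the 3′ bin of 5 (19.0%) was 11.1% with the strongest peak of each gene alone. Sox4 (5.04) shifted furthest of the single genes, to 2.70 with 20 or more input reads and 0.57 with its peak of most IP reads. The cause of the other shifts was not tested. Leaving out the block over Sox1 and Sox1ot, chosen after seeing the data, gave 21 peaks and moved Sox1 alone, to 2.92. Genes with a strongest value of 3 or more numbered 4, and 2 with 20 or more input reads and without that block, a pair of limits also chosen after seeing the data. No paired analysis was possible because no column belongs to a library, so knockout against control, with replicates left out or other normalizations and filters, was not run.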
